A study of Mus musculus with 16 samples.

Results

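Wnt and Norrin signalling was followed in the lung endothelium through 10 genes, chosen by name from the 43346 genes of the deposited table: the receptors Fzd4 and Fzd6, the co-receptors Lrp5 and Lrp6, the receptor partner Tspan12, the transducer Ctnnb1, the nuclear factor Lef1, and the inhibitors Nkd1, Axin2 and Apcdd1. All 10 were found in the table and all 10 could be tested. The study sequenced RNA of freshly sorted lung endothelial cells (ECs) to ask how injury and age change them. Every mouse was of the FVB strain and carried a Col1a1-GFP transgene, and the sorted cells were CD31+, CD45-, EpCAM- and GFP-. The 4 groups were Young Sham (2 months old, given PBS, n = 5), Young Bleo (2 months old, given bleomycin, n = 4), Aged Sham (18 months old, given PBS, n = 3) and Aged Bleo (18 months old, given bleomycin, n = 4). Bleomycin, a drug that injures the lung, went into the trachea at about 1 U/kg, both sexes were used, and cells were collected on day 30. Libraries are named here by their group and the number in their title. The labels do not say that the libraries of a group came from separate animals, although the study's methods speak of individual mice, so p-values measure the spread between these samples.

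In canonical Wnt signalling a secreted Wnt protein binds a frizzled receptor together with Lrp5 or Lrp6, which stops the destruction of beta-catenin (Ctnnb1), and beta-catenin then enters the nucleus and works with factors such as Lef1. Norrin, the product of Ndp, is no Wnt, but it binds Fzd4 and acts through Lrp5 with the help of the tetraspanin Tspan12, a route best known from vessels of the retina and brain. Axin2, Nkd1 and Apcdd1 are widely used as targets of the pathway that also restrain it.

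Total counts ranged from 20.9 to 71.0 mega-counts (M) per library. Every Aged Bleo library (51.7 to 71.0 M) was deeper than every Aged Sham library (23.7 to 50.3 M). The RNA integrity ranges that the paper gives by group lay higher for the bleomycin groups than for the sham groups, with some overlap. The part of depth and RNA quality in the results was not tested. The summed FPKM (reads per unit of gene length and of sequencing depth, so that genes can be compared with each other) of 8 general endothelial markers lay between 292 and 588 in every library, and the mean FPKM of Epcam, an antigen used for exclusion, was at most 0.382 in any group. Epithelial RNA was nevertheless present, since the summed FPKM of 6 epithelial markers ran from 51.5 to 384 over the libraries, most of it from the surfactant gene Sftpc (group means 155 to 234). Of these markers 1 was called lower in Young Bleo and 1 in Aged Bleo against Young Sham, and their part in the results was not tested. A gene was called when its DESeq2 p, Benjamini-Hochberg adjusted over all genes tested, did not exceed 0.05 and its log2 fold change was 0.5 or more in size, and the result of a second tool, edgeR, stands beside each call. Normalized counts are read counts divided by the DESeq2 size factor of the library, and they compare libraries within a gene.

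The levels of the 10 genes spanned a wide range in these cells. By mean FPKM over the 16 libraries, Nkd1 (53.6), Tspan12 (42.8) and Ctnnb1 (39.4) stood highest, followed by Fzd6 (6.47), Fzd4 (6.46), Apcdd1 (1.85), Lrp6 (1.33), Lrp5 (0.995), Axin2 (0.166) and Lef1 (0.0987). Only Ctnnb1 against Fzd6 and Lrp5 against Axin2 were neighbours in this order whose ranges over the libraries did not overlap. Fzd6 was above Fzd4 in 6 of 16 libraries, and Tspan12 was above Ctnnb1 in 9 of 16, so neither pair had a fixed order. The inhibitors were thus found at both ends of the order, with Nkd1 at the top and Axin2 near the bottom. The ligand Norrin was barely detected in the sorted cells, since the mean FPKM of Ndp was 0.00578 (Young Sham), 0.0768 (Young Bleo), 0.0456 (Aged Sham) and 0.0594 (Aged Bleo), and its median was 0 in the Young Sham, Young Bleo and Aged Bleo libraries.

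**Figure D1:**
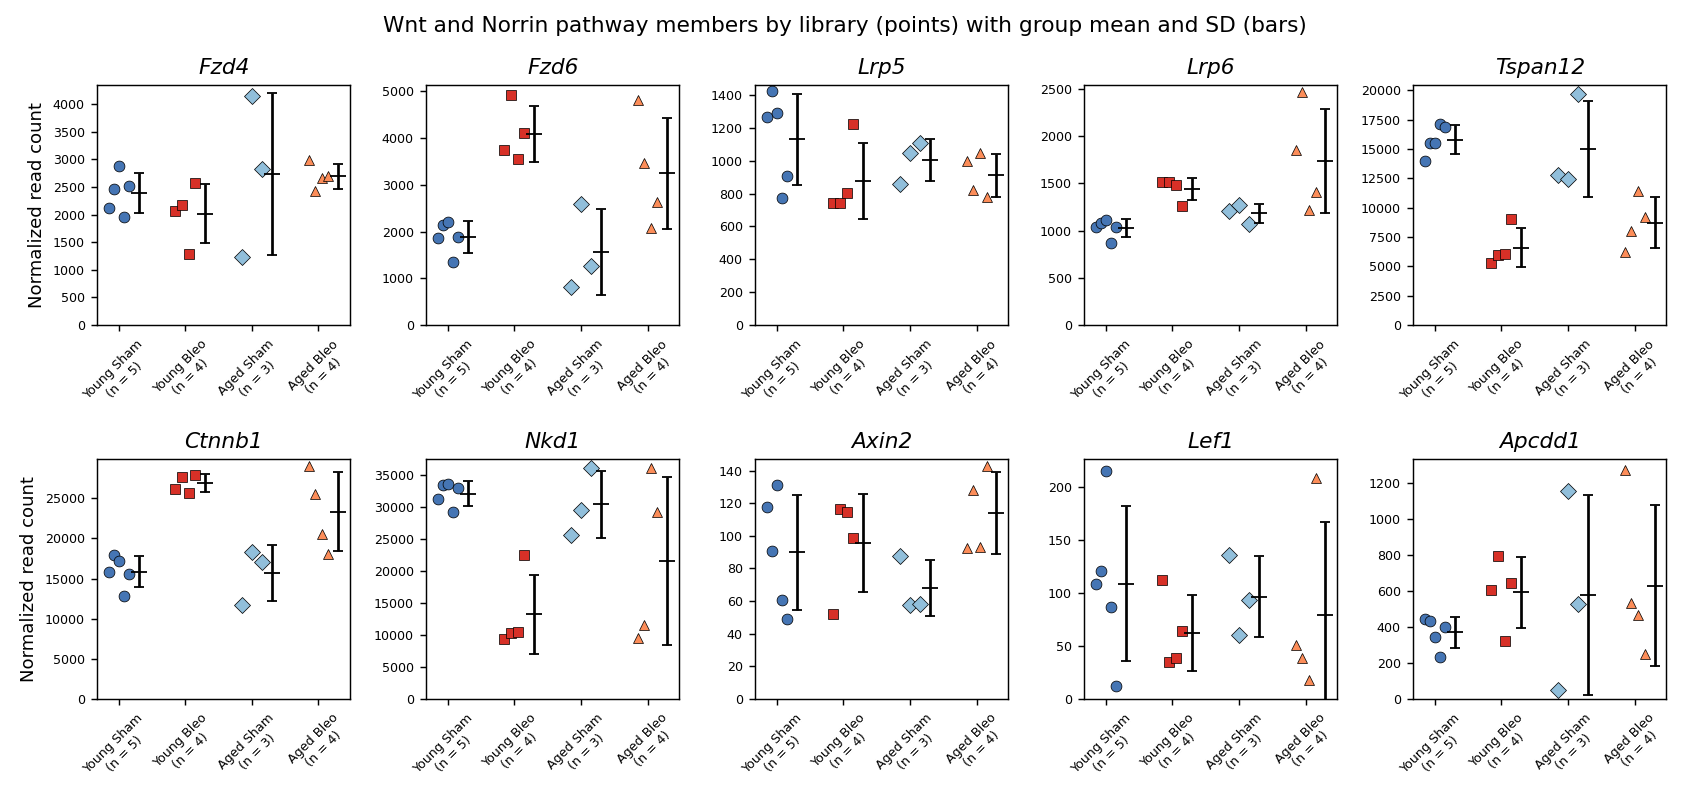
Normalized read count (vertical axis, linear and starting at 0) of each of the 10 genes in each library (points), with the group mean and SD as bars (n = 5, 4, 3 and 4; the Lef1 bar of Aged Bleo is clipped at 0). Tspan12 lay lower in all 8 bleomycin libraries than in all 8 sham libraries, whereas the Aged Bleo points of Nkd1 fell into a low pair (9482 and 11561) and a pair at the sham level (29191 and 36154).

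The promoters of the 2 members that fell in young mice and of Ctnnb1, which rose, are shown because they can be read side by side for the motifs of the pathway and of the endothelial factor family ETS. RefSeq promoter entries on GRCm38.p6 were matched by symbol for 6 of the 10 members, and the 250 bases before the start site are printed 5′ to 3′ on the gene's strand. Capitals mark the ETS core AGGAAG, or CTTCCT on the opposite strand, and they would mark the LEF/TCF core CTTTGA, or TCAAAG, in the same way.
Nkd1, chr8:88527383-88527632, plus strand: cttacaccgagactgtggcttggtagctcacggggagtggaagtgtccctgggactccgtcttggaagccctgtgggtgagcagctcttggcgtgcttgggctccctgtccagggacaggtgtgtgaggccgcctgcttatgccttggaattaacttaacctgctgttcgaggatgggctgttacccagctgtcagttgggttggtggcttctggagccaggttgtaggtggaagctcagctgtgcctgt
Tspan12, chr6:21852534-21852783, minus strand: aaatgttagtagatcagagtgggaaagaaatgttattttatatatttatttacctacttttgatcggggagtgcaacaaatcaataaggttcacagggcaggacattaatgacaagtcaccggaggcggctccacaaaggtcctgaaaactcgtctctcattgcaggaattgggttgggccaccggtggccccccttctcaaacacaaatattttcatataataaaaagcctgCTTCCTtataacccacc
Ctnnb1, first start, chr9:120933150-120933399, plus strand: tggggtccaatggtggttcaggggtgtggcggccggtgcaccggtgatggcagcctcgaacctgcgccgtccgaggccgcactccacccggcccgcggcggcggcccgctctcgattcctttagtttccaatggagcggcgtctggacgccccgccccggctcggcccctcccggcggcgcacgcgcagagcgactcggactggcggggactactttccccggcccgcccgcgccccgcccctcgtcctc

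The Tspan12 window held 1 ETS core, 17 bases before the start, and the Nkd1 and Ctnnb1 windows held neither motif. Among all 32851 windows of this length, 29.5% held the ETS core and 13.8% held the LEF/TCF core, so these matches are a description of the letters. The Nkd1 and Ctnnb1 windows lie inside the interval that the deposited table gives for the gene, because the table's interval begins upstream of the RefSeq start. Among the other matched members, Axin2 had an ETS core at 104 bases, and the fourth Lef1 start had an ETS core at 13 bases and was the only one with the LEF/TCF core, at 180 and 120 bases before it.

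The first comparison asked whether age changed these genes without injury. In Aged Sham against Young Sham 0 of the 10 genes were called by DESeq2, while 3.35% of all genes tested were called. The count was also 0 by edgeR, where the background was 0.862%, and 0 members had an unadjusted p under 0.05 with either tool. The groups overlapped for all 10 members, where 8.73% of all genes did not overlap. The median log2 fold change of the members was -0.08, against 0.02 over all genes tested. The intervals were not equally tight. That of Ctnnb1 ran from -0.37 to 0.34 on the log2 scale and that of Tspan12 from -0.51 to 0.36, while those of Lef1 (-1.67 to 1.33) and Apcdd1 (-0.56 to 1.86) leave room for large differences. Aged Sham replicate 13 held the lowest value of its group for Fzd4, Fzd6, Lrp5, Apcdd1, Nkd1 and Ctnnb1, and Apcdd1 ran from 49.96 there to 1154 normalized counts in replicate 14. Replicate 13 was also shallower (23.7 M) than replicates 14 (41.5 M) and 15 (50.3 M). Its summed FPKM of endothelial markers (292) was the lowest of all libraries.

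The second comparison asked how bleomycin changed the pathway in young mice. Young Bleo differed from Young Sham in 4 of 10 members, with Fzd6 and Ctnnb1 higher and Tspan12 and Nkd1 lower, and edgeR called the same 4. Over all genes tested, 13.9% were called by DESeq2 and 9.78% by edgeR. The groups did not overlap for 5 members, the called genes and Lrp6, whereas 14.8% of all genes did not overlap. The median log2 fold change over the members was -0.07 and that over all genes was 0.01, so members moved in both directions and their median absolute change was 0.72, against 0.36 over all genes tested. Because these are bulk libraries, fewer cells of a type and less RNA per cell cannot be told apart here or in any result that follows.

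Fzd6 (ENSMUSG00000022297, chr15:39006280-39038186), a frizzled receptor known chiefly for planar cell polarity, was higher in young mice after injury. Its normalized counts in Young Sham replicates 21 to 25 were 1863, 2137, 2196, 1339 and 1874. In Young Bleo replicates 17 to 20 they were 3749, 4925, 3559.6 and 4109. The lowest injured library thus stood above the highest sham library. The log2 fold change was 1.12 (SE 0.30, adjusted p = 0.00274 by DESeq2 and 0.0212 by edgeR). In the aged mice Fzd6 was 811, 2583 and 1273 in Aged Sham replicates 13, 14 and 15. In Aged Bleo replicates 1, 2, 3 and 5 it was 4818, 3465, 2069 and 2629. The aged groups overlapped through Aged Sham replicate 14 and Aged Bleo replicate 3. Against Aged Sham the log2 fold change was 1.06 (SE 0.34), which DESeq2 called (adjusted p = 0.0353) and edgeR did not (adjusted p = 0.118). The call was also lost in DESeq2 fitted on the compared groups only (adjusted p = 0.174) and without Aged Bleo replicate 1 (0.80, adjusted p = 0.218), Aged Bleo replicate 2 (1.03, 0.0776), Aged Sham replicate 13 (0.75, 0.174) or Aged Sham replicate 15 (0.93, 0.165), while without Aged Sham replicate 14 the log2 fold change was 1.64. Against Young Sham it was 0.79 and was not called (adjusted p = 0.0669 by DESeq2, 0.118 by edgeR). It became a call without Aged Bleo replicate 3 (0.95, adjusted p = 0.0210) and in DESeq2 fitted on the compared groups only (0.79, adjusted p = 0.0193).

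Fzd4 (ENSMUSG00000049791, chr7:89404366-89410110), the receptor shared by Wnt ligands and Norrin, was called in none of the comparisons. Its group means were 2386 ± 364 (SD) for Young Sham (n = 5), 2018 ± 540 for Young Bleo (n = 4), 2735 ± 1463 for Aged Sham (n = 3) and 2690.1 ± 228 for Aged Bleo (n = 4). The spread in Aged Sham came from the distance between replicate 13 (1231) and replicate 14 (4154). For Young Bleo against Young Sham the 95% interval of the log2 fold change ran from -0.78 to 0.30.

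Tspan12 (ENSMUSG00000029669, chr6:21771395-21852515), the tetraspanin that helps Norrin act through Fzd4, fell after bleomycin in young mice, and in aged mice it was lower with a call that depended on the tool and the libraries when Aged Sham was the control. Normalized counts in Young Sham replicates 21 to 25 were 13966, 15496, 15542, 17114 and 16824. In Young Bleo replicates 17 to 20 they were 5319.5, 5993, 6058 and 9022. Replicate 20 was the highest of the injured young libraries but stayed below every sham library. The log2 fold change was -1.26 (SE 0.20, adjusted p = 1.19e-07 by DESeq2 and 0.00234 by edgeR). In Aged Sham replicates 13, 14 and 15 the counts were 12789, 12412 and 19710.4. In Aged Bleo replicates 1, 2, 3 and 5 they were 6224, 8047, 11441 and 9160.3. These groups did not overlap either, with replicate 3 as the closest to the sham range. Aged Bleo was lower than Young Sham (log2 fold change -0.86, SE 0.20, adjusted p = 0.000853 by DESeq2 and 0.0198 by edgeR). It was lower than Aged Sham by DESeq2 only (log2 fold change -0.78, SE 0.23, adjusted p = 0.0197, and 0.0916 by edgeR). That call was lost in DESeq2 fitted on the compared groups only (adjusted p = 0.116) and without Aged Bleo replicate 1 (-0.65, adjusted p = 0.102), Aged Bleo replicate 2 (-0.74, 0.0564) or Aged Sham replicate 15 (-0.53, 0.220).

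The co-receptors Lrp5 (ENSMUSG00000024913, chr19:3584828-3686564) and Lrp6 (ENSMUSG00000030201, chr6:134446476-134566965), which pair with frizzled receptors at the membrane, had estimates of opposite sign after injury. Lrp6 was 1040.4, 1081, 1115, 864 and 1034 normalized counts in Young Sham replicates 21 to 25. It was 1514, 1511, 1479 and 1263 in Young Bleo replicates 17 to 20. Every injured young library was above every sham one, but the log2 fold change of 0.49 (SE 0.18) fell just short of the size threshold (adjusted p = 0.0471 by DESeq2 and 0.0766 by edgeR). In Aged Sham replicates 13, 14 and 15 Lrp6 was 1211, 1267 and 1075. In Aged Bleo replicates 1, 2, 3 and 5 it was 1850.3, 2465, 1220.3 and 1411. Replicate 2 was the highest of all libraries, and replicate 3 lay within the Aged Sham range. Lrp6 was called in Aged Bleo against Young Sham (log2 fold change 0.76, SE 0.18, adjusted p = 0.000962 by DESeq2 and 0.0157 by edgeR), a call lost on size with limma on log2(FPKM + 1) (0.40, adjusted p = 0.0279), but not against Aged Sham (0.55, adjusted p = 0.0900 by DESeq2 and 0.159 by edgeR). The latter became a call without Aged Bleo replicate 3 (0.69, adjusted p = 0.0084 by DESeq2) or Aged Bleo replicate 5 (0.64, 0.0457). Lrp5 was called in none of the comparisons and had a mean of 1131 ± 276 in Young Sham (SD, n = 5) and 878 ± 232 in Young Bleo (SD, n = 4). Young Bleo replicate 20 (1223) stood apart from replicates 17, 18 and 19 (741, 744 and 802). Without that library DESeq2 called both co-receptors in young mice, Lrp5 lower (log2 fold change -0.57, adjusted p = 0.0321) and Lrp6 higher (0.55, adjusted p = 0.0338).

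Ctnnb1 (ENSMUSG00000006932, chr9:120929216-120960507), which encodes beta-catenin, the transducer of the pathway and also a part of endothelial junctions, rose in young mice after injury. Its normalized counts were 15780.4, 17947, 17131, 12845 and 15526 in Young Sham replicates 21 to 25. They were 26204, 27676, 25667 and 27966 in Young Bleo replicates 17 to 20. The injured young libraries lay close together and well above the sham range, and the log2 difference was 0.76 (SE 0.16, adjusted p = 0.00013 by DESeq2 and 0.00771 by edgeR). In Aged Sham replicates 13, 14 and 15 Ctnnb1 was 11738, 18275 and 17038. In Aged Bleo replicates 1, 2, 3 and 5 it was 29094, 25611, 20604 and 18123. Replicate 1 stood above all injured young libraries, replicate 2 just below the lowest of them, and replicate 5 lay below Aged Sham replicate 14. Ctnnb1 was called in Aged Bleo against Young Sham (log2 fold change 0.56, SE 0.16, adjusted p = 0.0108 by DESeq2 and 0.0467 by edgeR). That call was lost without Aged Bleo replicate 1 (0.44, adjusted p = 0.102), without Aged Bleo replicate 2 (0.51, adjusted p = 0.0668) and, on size alone, without Young Sham replicate 24 (0.49, adjusted p = 0.0425 by DESeq2). It was also lost with limma on log2(FPKM + 0.1) and on log2(FPKM + 1) (adjusted p = 0.0681 and 0.0672). Against Aged Sham DESeq2 called it (0.57, SE 0.19, adjusted p = 0.0403) and edgeR did not (adjusted p = 0.117). It was not called there by DESeq2 on the compared groups only (adjusted p = 0.237) or without Aged Bleo replicate 1 (0.45, adjusted p = 0.206), Aged Bleo replicate 2 (0.53, 0.109), Aged Sham replicate 13 (0.40, 0.200) or Aged Sham replicate 15 (0.64, 0.0677). The interval of Ctnnb1 in the deposited table also overlaps the antisense gene 4930593C16Rik (0 reads on average) and the coding gene Ulk4 (1450 reads), and the strand setting of the counting was not given.

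Nkd1 (ENSMUSG00000031661, chr8:88521344-88594887), an inhibitor that binds Dishevelled proteins and a target of the pathway, fell in young mice and split the aged ones. Its normalized counts were 31241, 33505, 33715, 29199.9 and 33009 in Young Sham replicates 21 to 25. They were 9416, 10365, 10491 and 22565 in Young Bleo replicates 17 to 20. The groups did not overlap, but replicate 20 stood far above the other injured young libraries. The log2 fold change was -1.28 (SE 0.35, adjusted p = 0.00313 by DESeq2 and 0.0325 by edgeR), and without replicate 20 it was -1.67. In Aged Sham replicates 13, 14 and 15 Nkd1 was 25659, 29569 and 36146. In Aged Bleo replicates 1, 2, 3 and 5 it was 9482, 11561, 36154 and 29191. Replicates 1 and 2 thus matched the low injured young libraries, whereas replicate 5 lay within the Aged Sham range and replicate 3 at its upper end. Nkd1 was not called in Aged Bleo against Young Sham (log2 fold change -0.57, adjusted p = 0.330 by DESeq2 and 0.390 by edgeR) or against Aged Sham (-0.50, adjusted p = 0.555 by DESeq2 and 0.6003 by edgeR). Without Aged Bleo replicate 3 the first of these became a call (-0.94, adjusted p = 0.0441 by DESeq2).

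Markers of aerocytes, the capillary cells specialised for gas exchange, moved with Nkd1 and Tspan12 across the libraries. The 6 aerocyte markers (Car4, Ednrb, Apln, Tbx2, Prx and Fibin) were all called lower in Young Bleo against Young Sham and 2 of 6 in Aged Bleo against Young Sham, whereas 0 of 6 were called in Aged Bleo against Aged Sham, where DESeq2 called Tspan12 lower. Their summed FPKM was 208, 278, 389 and 945 in Young Bleo replicates 17 to 20. It was 193, 332, 1271 and 997 in Aged Bleo replicates 1, 2, 3 and 5. The 3 injured libraries with the highest sums (Aged Bleo replicates 3 and 5 and Young Bleo replicate 20) were also the 3 with the highest Nkd1 and the 3 with the highest Tspan12. In the sham libraries the sum ran from 1513 to 1940 in Young Sham and from 1139 to 1779 in Aged Sham. Fzd6 and Ctnnb1 were lowest of the injured libraries in Aged Bleo replicates 3 and 5, but in Young Bleo replicate 20 both stayed at the level of the other injured young libraries. Of 6 general capillary markers, 2 were called higher in Young Bleo and 2 in Aged Bleo, each against Young Sham, and 3 in Aged Bleo against Aged Sham. In Aged Sham against Young Sham 2 of these 6 markers were called lower. Their median summed FPKM was 642 (Young Sham), 764 (Young Bleo), 412 (Aged Sham) and 714 (Aged Bleo). Of 5 lymphatic endothelial markers, 2 were called higher in Young Bleo and 1 in Aged Bleo, each against Young Sham. The part of capillary or lymphatic composition in the Nkd1, Tspan12, Fzd6 and Ctnnb1 results, and in those of the other pathway genes, was not tested.

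**Figure D2:**
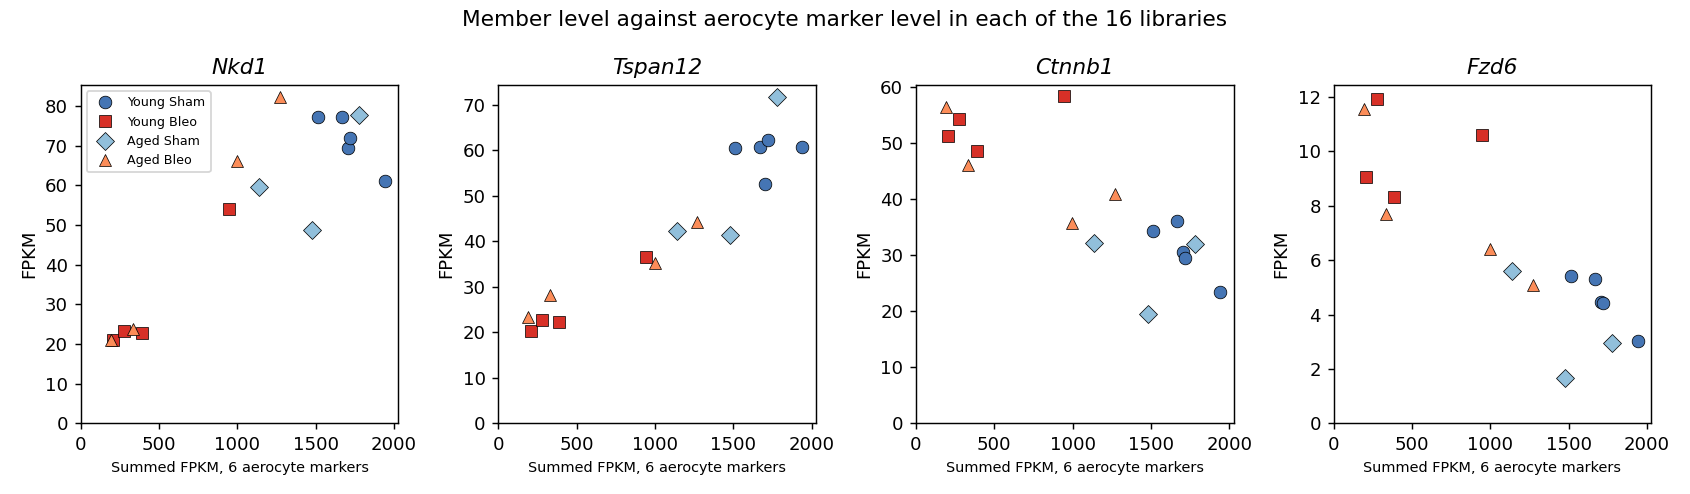
FPKM of Nkd1, Tspan12, Ctnnb1 and Fzd6 (vertical axes) against the summed FPKM of 6 aerocyte capillary markers (horizontal axis) in each of the 16 libraries, coloured by group. Nkd1 and Tspan12 are high where the marker sum is high, including in Young Bleo replicate 20 (945) and Aged Bleo replicates 3 and 5 (1271 and 997), and Ctnnb1 and Fzd6 are mostly low there.

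Macrophage markers, which a CD45- sort should remove, also differed between libraries. The summed FPKM of 9 of them (Adgre1, Marco, Itgax, Chil3, Mrc1, Csf1r, Ptprc, Cd68 and Mmp12) ran from 1.75 to 5.41 (Young Sham), 12.0 to 75.4 (Young Bleo), 2.71 to 24.5 (Aged Sham) and 29.8 to 256 (Aged Bleo). In Aged Bleo replicates 1, 2, 3 and 5 the sums were 256, 126, 33.9 and 29.8, so the libraries low in Nkd1 were those high in these markers. Of the 9, DESeq2 called 5 higher in Young Bleo and 6 higher in Aged Bleo, each against Young Sham. The mean FPKM of Ptprc, which encodes CD45, was 0.0105 in Young Sham and 0.242 in Aged Bleo. Pericyte and smooth muscle markers fell, with 5 of 7 called lower in Young Bleo and 6 of 7 in Aged Bleo against Young Sham, and mesothelial markers rose, with 5 of 5 and 4 of 5 called higher. Fibroblast markers were called lower in Aged Bleo against Young Sham in 4 of 6 cases, with a summed FPKM of 6.83 to 11.7, against 13.1 to 31.8 in Young Sham. Of 5 platelet markers, 4 were called higher in Aged Sham against Young Sham and 4 lower in Aged Bleo against Aged Sham, the comparison in which DESeq2 called Fzd6, Tspan12 and Ctnnb1. Their summed FPKM was 627 to 3384 in Aged Sham, the highest in replicate 14, and 65.0 to 482 in Aged Bleo. The part of these cell types in the results was not tested.

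Axin2 (ENSMUSG00000000142, chr11:108920349-108950783), a scaffold of the destruction complex that is often used as the readout of canonical Wnt activity, was low and was called in none of the comparisons. Its normalized counts were 118, 90.6, 131, 60.8 and 48.9 in Young Sham replicates 21 to 25 and 52.0, 116, 115 and 98.9 in Young Bleo replicates 17 to 20. They were 87.9, 57.7 and 58.5 in Aged Sham replicates 13, 14 and 15 and 92.5, 128, 93.0 and 143 in Aged Bleo replicates 1, 2, 3 and 5. All aged injured libraries stood above all aged sham libraries, yet the log2 fold change of 0.76 had an interval from -0.02 to 1.54 (adjusted p = 0.284 by DESeq2 and 0.383 by edgeR). In young mice the estimate was 0.09, with an interval from -0.59 to 0.78. The interval of Axin2 overlaps the antisense gene Gm11670 in the table, which held 1.94 reads on average.

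Lef1 (ENSMUSG00000027985, chr3:131110471-131224356), a nuclear partner of beta-catenin that T cells also express, was the lowest member and was called in none of the comparisons. Its normalized counts were 109, 120, 215, 86.6 and 11.7 in Young Sham replicates 21 to 25 and 112, 34.3, 38.6 and 64.1 in Young Bleo replicates 17 to 20. They were 136, 60.0 and 93.2 in Aged Sham replicates 13, 14 and 15 and 51.0, 38.3, 17.4 and 208 in Aged Bleo replicates 1, 2, 3 and 5. The values within Young Sham alone were spread from 11.7 to 215, and all groups overlapped. Aged Bleo replicate 5, with the highest Lef1 of its group, also had the highest sum of 8 T cell markers of all libraries, 18.3 FPKM, where the other libraries had 0.497 to 4.66. Cd4 was at 0 in all Young Sham and Young Bleo libraries, the CD45- sort should remove T cells, and their part in the Lef1 value was not tested. Without that library the Aged Bleo values ended at 51.0.

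Apcdd1 (ENSMUSG00000071847), a membrane inhibitor that binds Wnt proteins and their co-receptors, was called in none of the comparisons. Its normalized counts were 442, 433, 340, 229 and 397 in Young Sham replicates 21 to 25 and 606, 791, 322 and 641 in Young Bleo replicates 17 to 20. They were 49.96, 1154 and 527 in Aged Sham replicates 13, 14 and 15 and 1271, 531, 464 and 248 in Aged Bleo replicates 1, 2, 3 and 5. Each aged group was spread over a wider range than Young Sham. The log2 fold change in young mice was 0.68 with an interval from -0.43 to 1.79 (adjusted p = 0.488 by DESeq2 and 0.517 by edgeR).

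**Figure D3:**
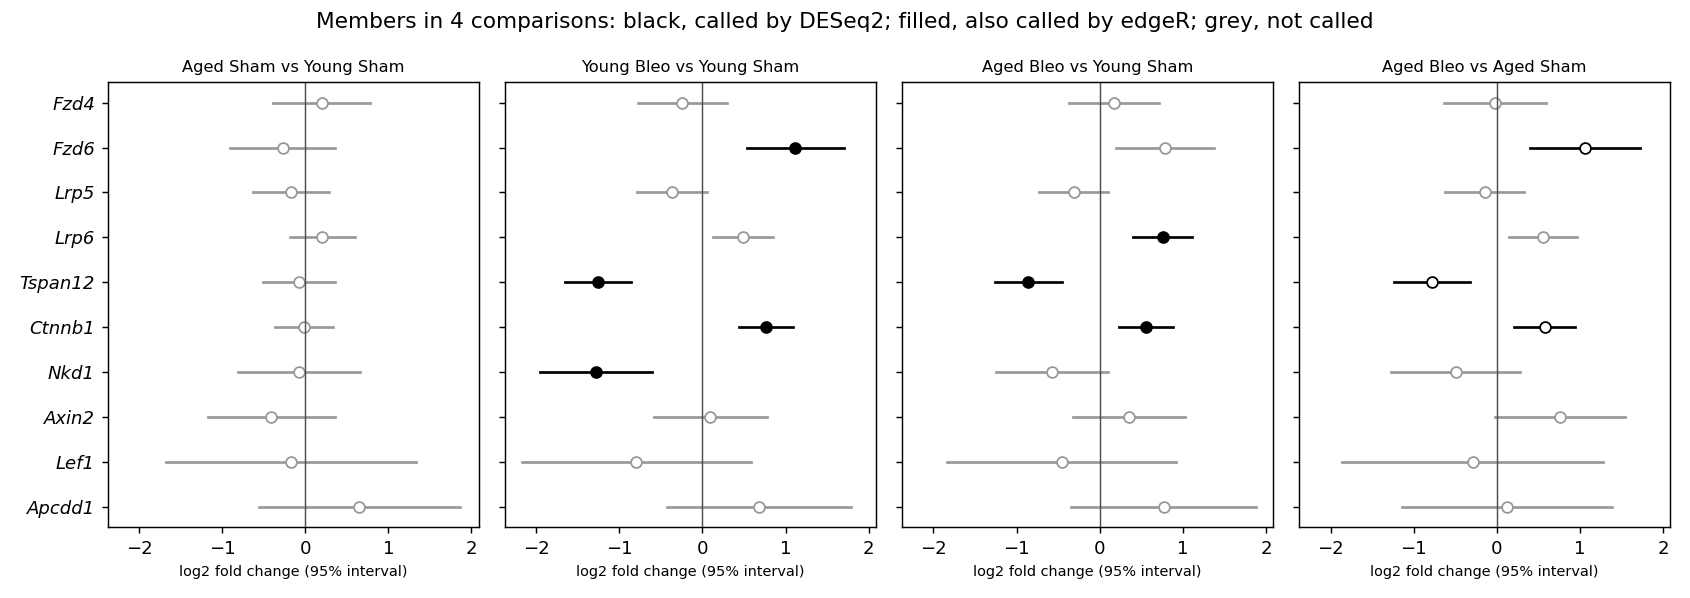
Log2 fold change (horizontal axis) with its 95% interval for the 10 genes in 4 comparisons. Black marks a DESeq2 call, a filled point an edgeR call as well, and grey no call. Young Bleo against Young Sham has 4 filled points, Aged Bleo against Young Sham has 3, and Aged Bleo against Aged Sham has 3 open black points.

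Counted over the members, Aged Bleo against Young Sham gave 3 calls by DESeq2 (Lrp6 and Ctnnb1 higher, Tspan12 lower), where 9.72% of all genes were called, and the same 3 by edgeR, where 5.69% were. The groups did not overlap for these 3 members, against 10.8% of all genes. Aged Bleo against Aged Sham gave 3 calls by DESeq2 (Fzd6 and Ctnnb1 higher, Tspan12 lower), where 5.83% of all genes were called. By edgeR the count was 0 where 0.797% of all genes were called, although 4 members had an unadjusted p under 0.05 with either tool. In that comparison 2 members did not overlap between the groups, Tspan12 and Axin2, against 12.1% of all genes. The comparisons with Young Sham share the same control libraries.

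The last comparisons asked whether the injured ECs, or the response to injury, differed with age. Aged Bleo against Young Bleo gave 0 calls among the members by DESeq2 and by edgeR, with 0 at an unadjusted p under 0.05, where 1.03% of all genes were called by DESeq2 and 0.0437% by edgeR. All 10 members overlapped between these groups, and 5.08% of all genes did not. The estimate furthest from 0 was that of Nkd1, 0.71 higher in Aged Bleo on the log2 scale, with an interval from -0.01 to 1.42 (adjusted p = 0.478 by DESeq2 and 0.621 by edgeR). Tspan12 was 0.40 higher, with an interval from -0.02 to 0.82 (adjusted p = 0.511 by DESeq2 and 0.622 by edgeR). The contrast of the 2 bleomycin responses (aged less young) also gave 0 calls and 0 at an unadjusted p under 0.05 with both tools, where 0.381% of all genes were called by DESeq2 and 0.00546% by edgeR. Its estimates were 0.79 for Nkd1 (interval -0.24 to 1.81), 0.48 for Tspan12 (-0.13 to 1.08) and -0.19 for Ctnnb1 (-0.68 to 0.30). These intervals are wide, so that a call in one age group and not in the other is not shown to be a difference between the ages.

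The wider pathway was read from 5 lists of genes by role, with a list of feedback targets that partly repeats them. In all, 111 listed genes were in the table and 97 were tested, members included. In Young Bleo against Young Sham 5 were called higher and 14 lower by DESeq2 (19.6% of those tested, where 13.9% of all genes were called), and 5 higher and 10 lower by edgeR. The counts were 6 higher and 5 lower in Aged Bleo against Young Sham (11.3%, beside 9.72% of all genes), 5 and 2 in Aged Bleo against Aged Sham (7.22%, beside 5.83%), and 3 and 2 in Aged Sham against Young Sham (5.15%, beside 3.35%). By edgeR these became 4 and 2, 0 and 0, and 1 and 0. Aged Bleo against Young Bleo gave 1 higher and 1 lower by DESeq2 (2.06%, beside 1.03% of all genes), and the contrast of the responses gave 1 lower of 98 tested (1.02%, beside 0.381%), and edgeR called none of these 3. The median log2 fold change over the listed genes was -0.14 in young injured mice (0.01 over all genes tested) and -0.17 in Aged Bleo against Young Sham (0.02). It was -0.07 in Aged Bleo against Aged Sham (0.006).

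**Figure D4:**
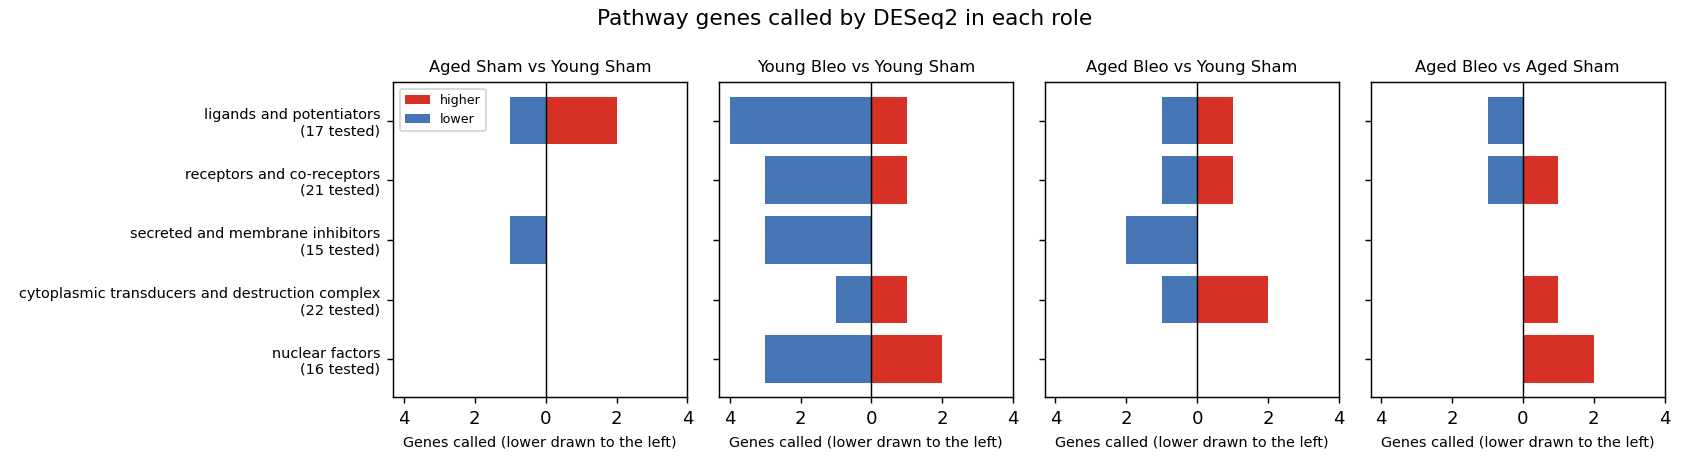
Number of listed pathway genes called by DESeq2 (horizontal axis, higher to the right in red and lower to the left in blue) in each role, for 4 comparisons. In young injured mice 1 of 17 ligands and potentiators was called higher and 4 lower, 1 of 21 receptors higher and 3 lower, and 0 of 15 secreted or membrane inhibitors higher and 3 lower, where 13.9% of all genes were called in either direction.

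Among the ligands and their potentiators, Rspo3, an R-spondin that enhances Wnt signalling and is made by ECs, fell in young injured mice. Its mean FPKM was 8.07 ± 2.36 (SD) for Young Sham (n = 5), 1.33 ± 0.917 for Young Bleo (n = 4), 12.6 ± 5.61 for Aged Sham (n = 3) and 6.94 ± 5.84 for Aged Bleo (n = 4). The log2 fold change was -2.65 in young mice (SE 0.52, adjusted p = 2.15e-05 by DESeq2 and 0.0113 by edgeR), while Aged Bleo was 2.41 above Young Bleo by DESeq2 (adjusted p = 0.00401) but not by edgeR (0.219). The acyl transferase Porcn, which prepares Wnt proteins for release, fell by 0.56 in young mice (adjusted p = 0.0106 by DESeq2 and 0.0415 by edgeR). Wls, the carrier of Wnt proteins and the most abundant gene of the list (mean FPKM 15.8), was -0.17 in the same comparison and was not called (adjusted p = 0.474). Wnt2b (mean FPKM 0.127) was called lower in young injured mice, and Wnt4 (0.0889) lower than in Young Sham in each of the other groups, by DESeq2 only. Rspo1, at a mean FPKM of 0.377, was called higher than in Young Sham in Aged Sham (4.17), Young Bleo (2.82) and Aged Bleo (3.08), by both tools. It was also the only listed gene called in the contrast of the 2 bleomycin responses, aged less young (-3.91, SE 1.02, adjusted p = 0.0404 by DESeq2 and 0.468 by edgeR). Mesothelial markers, which were higher in those same 3 groups, moved with Rspo1, and their part in it was not tested. Wnt2 was called higher in Aged Sham than in Young Sham (1.42) and lower in Aged Bleo than in Aged Sham (-1.69), both by DESeq2 only.

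Among the other receptors, Ryk, a Wnt receptor of the tyrosine kinase family, fell by 0.55 in young mice (SE 0.10, adjusted p = 2.91e-06 by DESeq2 and 0.00697 by edgeR). Reck, which with Adgra2 serves the Wnt7 signal in brain vessels, fell by 1.47 (adjusted p = 0.00216 by DESeq2 and 0.0276 by edgeR), and Adgra2 was 0.26 and was not called (adjusted p = 0.367). Out of 21 receptors tested in Aged Bleo against Young Sham, the members Lrp6 and Tspan12 were called (9.52%, beside 9.72% of all genes).

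Among the secreted inhibitors, Wif1, which binds Wnt proteins outside the cell, was lower than in Young Sham in each of the other groups. Its mean FPKM was 28.6 ± 2.32 (SD) for Young Sham (n = 5), 10.9 ± 6.73 for Young Bleo (n = 4), 8.57 ± 2.71 for Aged Sham (n = 3) and 9.45 ± 6.40 for Aged Bleo (n = 4). The log2 fold change was -1.43 in Young Bleo (adjusted p = 0.00739 by DESeq2 and 0.0489 by edgeR), -1.61 in Aged Bleo (0.00294 and 0.0428) and -1.62 in Aged Sham, where edgeR did not call it (0.0177 and 0.144). Of 7 pericyte and smooth muscle markers, 5 were called lower in Young Bleo, 6 in Aged Bleo and 2 in Aged Sham, each against Young Sham by DESeq2, with a median summed FPKM of 56.8 (Young Sham), 20.1 (Young Bleo), 26.3 (Aged Sham) and 11.9 (Aged Bleo). Their part in the Wif1 result was not tested. Dkk3 fell by 1.66 in young mice (adjusted p = 0.00112 by DESeq2 and 0.0219 by edgeR) and by 1.24 in Aged Bleo against Young Sham (0.0288 and 0.0937). Notum, an enzyme that inactivates Wnt proteins, was called lower in young mice by DESeq2 only, at a mean FPKM of 0.0632. Sfrp1 and Kremen1, with mean FPKM of 2.65 and 2.30, were the next most abundant inhibitors after Wif1, and Sfrp1 was lower in Aged Bleo than in Young Bleo by DESeq2 only (-1.35, adjusted p = 0.0368, and 0.270 by edgeR).

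Within the cell, 22 transducers and destruction complex genes were tested, and in young mice Ctnnb1 and Nkd1 were called (9.09%, beside 13.9% of all genes). Csnk1a1, the most abundant of this list after Nkd1 and Ctnnb1 (mean FPKM 14.5), was called in none of the comparisons. In Aged Bleo against Young Sham, Nkd2, the paralog of Nkd1, was higher (0.96, adjusted p = 0.0332) and Cxxc4, at a mean FPKM of 0.0360, was lower (-2.98, adjusted p = 0.00324) by DESeq2, and edgeR called neither (0.0830 and 0.0743). Among 16 nuclear factors, Tcf7, a relative of Lef1, fell by 1.27 in young mice (adjusted p = 0.00185 by DESeq2 and 0.0236 by edgeR), while Tcf7l1, a relative that mostly represses, rose by 0.66 (0.000352 and 0.0141). The co-repressor Tle4 fell by 0.97 (0.000315 and 0.0111), and Ctnnbip1, which keeps beta-catenin from its nuclear partners, rose by 0.99 (0.000666 and 0.0108). Tle1 was called lower by DESeq2 only (-0.64, adjusted p = 0.0337, and 0.0778 by edgeR). Tle2 (1.07) and Tle3 (0.73) were called higher in Aged Bleo than in Aged Sham by DESeq2 only. The most abundant nuclear factors were Aes (mean FPKM 81.9) and Cby1 (15.5).

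The list of 14 tested feedback targets did not move one way. In young mice Nkd1, Tcf7 and Notum were called lower and 0 higher by DESeq2 (21.4% of the list, beside 13.9% of all genes), edgeR called Nkd1 and Tcf7 but not Notum (adjusted p = 0.108), and the median over the list was 0.10. In Aged Bleo against Young Sham, Ccnd1 (0.60, adjusted p = 0.00418 by DESeq2 and 0.0306 by edgeR) and Myc (1.22, 0.0260 and 0.0791) were called higher by DESeq2 and none was lower. Both genes drive cell division and answer to many signals besides Wnt. Ccnd1 was also higher in Aged Sham than in Young Sham by DESeq2 (0.66, adjusted p = 0.00976), though not by edgeR (0.0840), and Myc in Aged Bleo than in Aged Sham (1.51, adjusted p = 0.0237 by DESeq2 and 0.114 by edgeR).

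Genes that the pathway controls in brain endothelium moved apart from each other. Of 9 tested, 5 were called in young injured mice (55.6%, beside 13.9% of all genes) and 4 in Aged Bleo against Young Sham (44.4%, beside 9.72%). Plvap, at a mean FPKM of 397, was called in none of the comparisons. In young mice Slc2a1, the glucose transporter, rose by 2.25 (adjusted p = 0.000425 by DESeq2 and 0.0172 by edgeR), the endothelial factor Sox17 by 2.22 (1.28e-07 and 0.00247) and the drug pump Abcb1a by 0.83 (0.00115 and 0.0144). The tight junction gene Cldn5 fell by 0.92 (4.3e-06 and 0.00425), from the highest level of the list at a mean FPKM of 1159, and the transcription factor Foxf2 fell by 2.69 (0.000729 and 0.0264). Pericyte and smooth muscle markers were also called lower than in Young Sham, 5 of 7 in Young Bleo and 6 of 7 in Aged Bleo. Their part in the Foxf2 result was not tested. For Aged Bleo against Young Sham the calls by both tools were Slc2a1 (2.47) and Sox17 (1.67) higher and Cldn5 (-0.84) and Foxf2 (-3.00) lower. Against Aged Sham, DESeq2 called 2 of 9 higher and 1 lower (33.3%, beside 5.83% of all genes), and edgeR called 0. These were Slc2a1 (2.08), Sox17 (1.69) and Cldn5 (-0.82). Foxf2 was not called there (-1.87, adjusted p = 0.115 by DESeq2 and 0.235 by edgeR).

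The genes whose profile was most like that of each moving member were found among 13773 genes, by the mean absolute difference of the centred log2 values over the 16 libraries. For Nkd1 they were Ehd4 (0.105), Sdpr (0.105) and Trib2 (0.129), where the member's own mean deviation was 0.679. For Tspan12 they were Nrp1 (0.118), Tmem204 (0.122) and Ifngr2 (0.127), against 0.536. For Ctnnb1 they were Fgd5 (0.0980), Foxp1 (0.129) and Rcc2 (0.130), against 0.350. Fzd6 was followed most closely by Itga5 (0.150), Fam198b (0.160) and Pik3r3 (0.166), against 0.584. Lrp6 was followed by Heg1 (0.114), Rdx (0.128) and Srsf1 (0.133), against 0.276. Libraries of a group share treatment and age, so this likeness is a description of these libraries.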

How the data were processed

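RNA sequencing libraries of sorted lung ECs were analysed from the table that the authors deposited. Per the labels and the study's methods, the authors aligned reads to mm10 with STAR 2.5.2b and counted them with Subread featureCounts. The kit is named differently in the 2 sources, and the strand setting is not given in the sources used here. The deposited read counts are whole and not normalized, and the deposited FPKM values were scaled by gene length and library total by the authors. Counts were tested with DESeq2 1.42.0 in R 4.3.3, the tool and thresholds of the study's methods, with group as the only term and all 16 libraries in 1 fit. The size factors, Cook filter and independent filtering were the defaults, and p-values were Benjamini-Hochberg adjusted over all genes tested. Alternatives were edgeR 4.0.16 (quasi-likelihood, TMM), TMM size factors, a filter of at least 10 counts in 3 libraries, limma 3.58.1 on log2(FPKM + 0.1) and log2(FPKM + 1), the compared groups only, no Cook filter (added after the data were seen) and each library left out. All 10 members are described. From the other pathway genes, those called and the most abundant of each list are named. The members, lists and rules were chosen with earlier results of these data known. The scripts were tested on simulated data. An earlier analysis of these data had found more false calls with DESeq2 on simulated counts, which is why the edgeR result stands beside each call.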

Additional observations from a re-analysis of the deposited data

Results flagged for a closer look

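Within groups of 4 or 5 libraries, 30 groups of values (10 genes in 3 groups) were searched for a library that stood apart by Dixon's criterion, which chance meets in about 1 group in 20, and 3 were found. All were Young Bleo replicate 20. It held 1223 normalized counts of Lrp5 (nearest other library 802), 1263 of Lrp6 (nearest 1479) and 22565 of Nkd1 (nearest 10491). In each case it was the Young Bleo library nearest to the Young Sham mean.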

How the results depend on the processing

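The 4 members called in Young Bleo against Young Sham were called in each of 7 other fits (edgeR, TMM size factors, a count filter, both limma settings, the compared groups only and no Cook filter) and with each of the 9 libraries left out in turn. In Aged Bleo against Young Sham the count of 3 became 1 with limma on log2(FPKM + 1), which lost Ctnnb1 and Lrp6, 2 with limma on log2(FPKM + 0.1), which lost Ctnnb1, and 4 on the compared groups only, which added Fzd6, and leaving out a library gave from 2 to 5, with the highest count without Aged Bleo replicate 3. In Aged Bleo against Aged Sham the count of 3 became 0 with edgeR, with limma on log2(FPKM + 0.1), with limma on log2(FPKM + 1) and in the fit on the compared groups only, and leaving out a library gave from 0 to 4, and it was 0 without Aged Bleo replicate 1, Aged Bleo replicate 2 or Aged Sham replicate 15, and 1 without Aged Sham replicate 13. The cause was not tested. No member changed sign while called. TMM scaling moved the median of all genes by at most 0.0221 on the log2 scale. No paired analysis was possible because replicate numbers do not repeat between groups.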
